A study of Mus musculus with 7 samples.

Results

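The epidermal growth factor (EGF) family in the mammary gland was followed through 10 genes, 6 ligands (Areg, Ereg, Hbegf, Tgfa, Btc and Nrg1) and 4 receptors (Egfr, Erbb2, Erbb3 and Erbb4), of the 27998 genes in the count matrix. The genes were taken by symbol, and all 10 were found. The matrix holds 13684 cells from the abdominal glands of 7 virgin female mice of mixed genetic background, 3 young (3 to 4 months) and 4 aged (13 to 14 months), 1 library per mouse, and each cell carries the name of 1 of 13 cell types given by the authors. No mouse received a treatment, and the study's methods place all mice at diestrus.

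EGF family ligands are made as membrane-anchored precursors that metalloproteases such as ADAM17 release. Amphiregulin (Areg), epiregulin (Ereg), HB-EGF (Hbegf), TGF-alpha (Tgfa) and betacellulin (Btc) bind EGFR, HB-EGF, epiregulin and betacellulin also bind ERBB4, and the neuregulin Nrg1 binds ERBB3 and ERBB4. ERBB2 has no ligand of its own and ERBB3 has little kinase activity, so both act in pairs with other family members. In the mammary gland, amphiregulin is known as the epithelial signal that carries estrogen receptor activity in ductal cells to EGFR in the surrounding stroma during ductal growth, and neuregulin as a myoepithelial product that acts on luminal cells.

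Of the family's ligand genes, 4 lie together on chromosome 5. In the GENCODE annotation of GRCm38, the build of the count files (mm10), Epgn, Ereg (chr5:91074622-91093646), Areg (chr5:91139599-91148432, plus strand) and Btc (chr5:91357261-91402994, minus strand) fall within 376 kb, and Areg starts 46.0 kb beyond the end of Ereg. The other members with a position given here lie apart, Tgfa at chr6:86195223-86275719, Nrg1 at chr8:31814551-32884029, Egfr at chr11:16752203-16918158, Erbb2 at chr11:98412470-98437716, Erbb3 at chr10:128567523-128589652 and Erbb4 at chr1:68032186-69108059. The 250 bases before the start of Areg and of Btc are shown because these neighbors were both detected in hormone-sensing cells, Areg in most of them and Btc in few. The sequences are from RefSeq (GRCm38.p6), read 5′ to 3′ on the strand of the gene, Areg at chr5:91139349-91139598 on the plus strand and Btc at chr5:91402995-91403244 on the minus strand. Capitals mark the cyclic AMP response element TGACGTCA and the TATA box TATAAA.
Areg: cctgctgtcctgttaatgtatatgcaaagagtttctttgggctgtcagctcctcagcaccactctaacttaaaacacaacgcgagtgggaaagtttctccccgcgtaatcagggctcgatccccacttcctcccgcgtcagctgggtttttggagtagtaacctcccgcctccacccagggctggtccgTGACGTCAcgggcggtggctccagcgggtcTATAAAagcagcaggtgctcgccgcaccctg
Btc: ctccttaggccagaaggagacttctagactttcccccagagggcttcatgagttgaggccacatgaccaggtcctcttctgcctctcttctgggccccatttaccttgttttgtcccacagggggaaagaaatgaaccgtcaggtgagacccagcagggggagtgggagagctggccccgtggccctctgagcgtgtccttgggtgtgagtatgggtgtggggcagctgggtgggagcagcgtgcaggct
The Areg window held TGACGTCA at 61 to 54 bases and TATAAA at 31 to 26 bases before the start, and the Btc window held neither. On either strand, TGACGTCA occurred in 1.55% and TATAAA in 12.4% of all 32851 windows of this length. Of the 10 members, Areg, Btc, Tgfa, Egfr, Erbb2 and Erbb4 were searched, and the full estrogen response element (found in 0.0639% of all windows), the full progesterone response element (0.387%) and the AP-1 site TGANTCA (6.75%) were in none of these 6. These matches describe letters only, and factor binding was not measured.

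Libraries held 6652599 to 16547583 unique molecular identifiers (UMIs) in young mice and 10207251 to 16999625 in aged mice. Median UMIs per cell ran from 4758.5 to 5253 in young and from 5582 to 7109.5 in aged libraries. Of 13583 distinct barcodes, 101 occurred in more than 1 library. Of 47 marker genes checked, 44 were highest in the cell type they name, and the remaining 3 (Myl9, Mylk and Myh11), contractile genes of the myoepithelial list, were highest in pericytes. The median mitochondrial percentage per cell ran from 3.18 to 3.68 in young and from 2.48 to 2.82 in aged libraries, without overlap, and its part in the age comparisons was not tested. Cell names carry barcodes written in a different form at the 2 ages, so age and any difference in library handling cannot be told apart.

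The 10 members split into abundant and sparse transcripts in these libraries, which set how much could be compared. Areg gave 29955 UMIs in 2735 cells and Hbegf 20751 UMIs in 5809 cells. Erbb3 (1787 UMIs), Egfr (1709), Nrg1 (958), Erbb2 (768), Btc (482) and Tgfa (466) were sparser, and Erbb4 (129) and Ereg (77) were close to the limit of detection. Levels are CPM, the counts of a gene scaled to a common total of 1000000, of the UMIs summed over the cells of 1 type in 1 mouse, and means cover mice with at least 10 cells of the type. A CPM value is set beside other cell types for the same gene and never beside another gene.

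**Figure D1:**
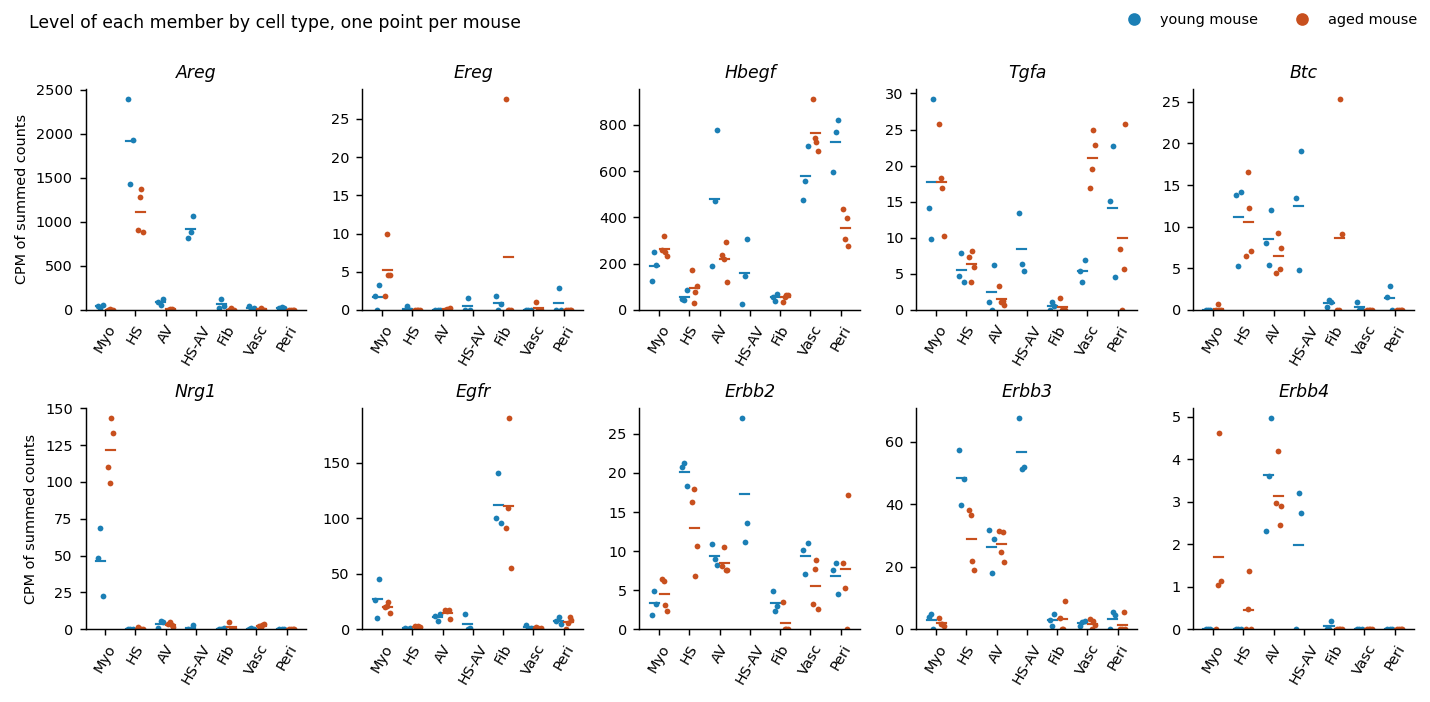
Level of each member in 7 cell types, as CPM of summed counts on a linear axis that starts at 0, with 1 point per mouse (young in blue, aged in orange, mice with at least 10 cells) and a bar at the group mean. Areg stood in HS and HS-AV cells, Nrg1 in myoepithelial cells, Egfr in fibroblasts, Erbb2 and Erbb3 in luminal cells, and Hbegf was spread over vascular, perivascular and epithelial cells.

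Among the ligands, Areg was a transcript of hormone-sensing (HS) luminal cells, the lineage that carries the estrogen, progesterone and prolactin receptors. Its level in HS cells was 2396, 1436 and 1935 CPM in young mice A, B and C, and 913, 1288, 1374 and 884 CPM in aged mice A to D, a mean of 1461 ± 543 (SD, n = 7). All young values lay above all aged values on this scale. HS-AV cells, a luminal type with both HS and alveolar markers, held 823, 884 and 1068 CPM in young mice, below the HS level of the same mouse in 3 of 3 mice. With 3 mice the exact sign-flip test cannot go below p = 0.25, and it gave that value (mean log2 difference 1.03 ± 0.45, SD).

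Alveolar (AV) luminal cells held far less Areg than HS cells in every mouse. Because HS-AV cells and macrophages were too few in aged mice, the 2 highest types were also compared among the 6 types with at least 10 cells in all 7 mice, a choice made after seeing the data. There, HS exceeded AV by 6.09 ± 1.602 on the log2(CPM + 1) scale (SD, n = 7, higher in 7 of 7 mice), with p = 0.0156 in an exact two-sided sign-flip test, the smallest 7 mice allow. The types compared in this way are the 2 highest in the same data, and the p-values of these 10 comparisons, 1 per member, are not adjusted. An Areg UMI was found in 84.1% of HS cells (95% Wilson interval 82.5 to 85.6%) and 89.4% of HS-AV cells, against 4.45% of vascular endothelial cells, which should lack the gene. Median depths were 7277, 4980 and 4907 UMIs per cell, and at 2000 UMIs per cell the shares were 69.9%, 70.7% and 2.25%. Shares at the vascular level are read as background, and intervals cover counting error only.

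Within HS cells Areg was uneven. The median HS cell held 8 Areg UMIs and the highest 139, and the top 10% of cells held 36.4% of the UMIs. At a depth of 2000 UMIs an Areg UMI was found in 85.8%, 63.2% and 73.7% of HS cells of young mice A, B and C, and in 52.5%, 57.7%, 61.3% and 50% of those of aged mice A to D. Every aged share lay below every young share, and these shares were not tested.

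Areg is a known target of steroid receptor signaling in this tissue, so its detection was compared between HS cells with and without a UMI of each hormone receptor. At 2000 UMIs per cell, Areg detection in HS cells did not differ detectably by a Pgr UMI (with minus without, -0.59 ± 18.0 percentage points, SD, n = 7 mice, higher in 4 of 7, exact sign-flip p = 0.922). The difference was 2.30 ± 14.1 points for Esr1 (higher in 3 of 7, exact p = 0.688) and 1.76 ± 8.14 points for Prlr (higher in 4 of 7, exact p = 0.594), and the adjusted p was 0.922 for all 3. The sign for Pgr turned to 4.95 points without equal depth, and receptor transcripts at this depth were found in few cells of some mice (8 HS cells with an Esr1 UMI in aged mouse D), so a difference of several points was not detectable.

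Cells of other types with many Areg UMIs also held other HS transcripts, while the remaining cells of these types were not examined in this way. In 42 cells named as other types, 39 of them from young mice, 10 or more Areg UMIs were found (864 in all), and each of the 42 also held a Prlr UMI. The 13 such cells in immune types held 281 Areg UMIs, 129 Prlr UMIs and 847 UMIs of the luminal keratins Krt8, Krt18 and Krt19, against 11 UMIs of Ptprc, the pan-leukocyte gene. Of the 208 Areg UMIs in Ma macrophages, which put that type next after HS-AV cells in the order of types with at least 10 cells in 3 or more mice (305 ± 178 CPM, SD, n = 3), 155 were in 7 of 122 cells. Whether these barcodes hold more than 1 cell was not tested.

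Nrg1, the neuregulin, was a myoepithelial transcript. It stood at 48.2, 68.8 and 22.7 CPM in young mice A to C and at 110, 99.5, 143 and 133 CPM in aged mice A to D, with no overlap between the ages. Among the 6 types with at least 10 cells in every mouse, its mean of 89.4 ± 44.6 CPM in myoepithelial cells was followed by 3.36 ± 1.87 in AV cells (SD, n = 7), a log2 difference of 4.31 ± 1.28 in the same direction in 7 of 7 mice (exact sign-flip p = 0.0156). Myoepithelial cells held 808 of the 958 Nrg1 UMIs (84.3%), spread over 452 of 1670 cells (27.1%).

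Hbegf, the heparin-binding ligand and a known early response gene, was found in more cells (5809) than any other member. Vascular endothelial cells led with 686 ± 140 CPM and pericytes followed with 514 ± 217, then AV cells (330 ± 226), myoepithelial cells (233 ± 59.7), HS cells (79.4 ± 48.0) and fibroblasts (55.1 ± 12.2, all SD, n = 7). Vascular cells exceeded pericytes in 4 of 7 mice (log2 difference 0.50 ± 0.80, exact p = 0.141), so with the ages pooled these neighbors did not differ beyond their spread. AV exceeded myoepithelial cells in 4 of 7. The means of both pairs changed order between the ages. Vascular cells held 579 ± 117 CPM and pericytes 727 ± 117 in young mice, and 767 ± 100 and 354 ± 76.0 in aged mice. AV cells held 479 ± 295 and myoepithelial cells 190 ± 62.7 in young mice, and 218 ± 71.6 and 265 ± 36.6 in aged mice. Pericytes exceeded AV cells in 7 of 7 mice. Hbegf was uneven between cells. An Hbegf UMI was found in 71.6% of vascular and 50.7% of AV cells, and the top 10% of cells held 40.8% and 51.6% of its UMIs.

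Tgfa was low and shared by myoepithelial (17.8 ± 7.39 CPM), vascular endothelial (14.3 ± 8.82) and pericyte cells (11.7 ± 9.69, SD, n = 7). Myoepithelial cells were above vascular cells in 4 of 7 mice, and vascular cells above pericytes in 4 of 7. With the ages pooled these neighbors thus did not differ beyond their spread (exact p = 0.281 for the first). The order of the Tgfa means differed by age. In young mice myoepithelial cells held 17.7 ± 10.2 CPM, vascular cells 5.34 ± 1.53 and pericytes 14.1 ± 9.08. In aged mice they held 17.8 ± 6.34, 21.1 ± 3.54 and 9.95 ± 11.1. Btc was a luminal transcript at 10.8 ± 4.44 CPM in HS and 7.36 ± 2.71 in AV cells (SD, n = 7), higher in HS in 5 of 7 mice (exact p = 0.0625). HS-AV cells had the highest Btc mean (12.5 ± 7.19 CPM, n = 3), which exceeded HS in 1 of 3 mice.

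Ereg was nearly silent in these glands. Of its 77 UMIs, 45 were in 26 myoepithelial cells and 25 in 13 fibroblasts. Fibroblasts had the higher mean (4.32 ± 10.3 CPM against 3.73 ± 3.21, SD, n = 7), and that mean rested on aged mouse A at 27.6 CPM (16 UMIs). Fibroblasts were above myoepithelial cells in 1 of 7 mice, and the type with the higher mean was therefore not the higher type within most mice (log2 difference -0.90 ± 2.28, SD, exact p = 0.281). In HS cells 1 of 2138 cells held an Ereg UMI, although its neighbor Areg was found in most of them.

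Among the receptors, Egfr was a fibroblast transcript, on the stromal side of the amphiregulin axis. Fibroblasts held 99.9, 141 and 95.6 CPM in young mice A to C and 91.4, 109, 190 and 54.9 CPM in aged mice A to D, the last 2 from 15 and 6 UMIs. The young values lay within the range of the aged ones. Fibroblasts exceeded myoepithelial cells (23.2 ± 11.3 CPM) in 7 of 7 mice, by 2.26 ± 0.85 on the log2 scale (exact p = 0.0156), and myoepithelial cells exceeded AV cells (13.2 ± 3.96) in 7 of 7. An Egfr UMI was found in 35.2% of fibroblasts and 9.73% of AV cells, and in 0.935% of HS cells and 0.715% of vascular endothelial cells. The HS cells, which held most of the Areg UMIs, thus held an Egfr UMI about as rarely as vascular cells, at a higher median depth (7277 against 4907 UMIs).

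Erbb2, the receptor without a ligand, and Erbb3, the neuregulin receptor with little kinase activity, were highest in luminal cells. Erbb3 stood at 37.2 ± 13.5 CPM in HS and 26.8 ± 5.51 in AV cells (SD, n = 7, HS higher in 5 of 7 mice, exact p = 0.109), and at 56.8 ± 9.22 in HS-AV cells, above HS in 3 of 3 mice (exact p = 0.25, the smallest possible). Fibroblasts (3.08 ± 3.23 CPM) and myoepithelial cells (2.40 ± 1.75) held little Erbb3. Erbb2 was also found outside the luminal types, with 17.3 ± 8.50 CPM in HS-AV cells (n = 3), 16 ± 5.37 CPM in HS, 8.85 ± 1.36 in AV, 7.35 ± 5.24 in pericytes, 7.23 ± 3.28 in vascular endothelial and 4.01 ± 1.84 in myoepithelial cells. HS exceeded AV in 6 of 7 mice (log2 difference 0.72 ± 0.45, exact p = 0.0312).

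Erbb4, the neuregulin receptor with an active kinase, was found mostly in AV cells, at 3.34 ± 0.965 CPM (SD, n = 7). AV cells held 88.4% of its 129 UMIs, with a UMI in 113 of 4820 cells. AV exceeded myoepithelial cells in 6 of 7 mice (log2 difference 1.43 ± 1.09, exact p = 0.0312). No Erbb4 UMI was found in 1819 vascular endothelial cells, which allows a share of up to 0.165% of cells with a UMI.

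For 8 members with a mean of at least 10 CPM in some type, the 3 genes most like each were sought over 49 mouse-by-type sums (10 types, at least 20 cells each) among 10483 genes, by Pearson r on log2(CPM + 1). The sums share libraries, and r is given as a description. Areg was most like Prlr, the prolactin receptor (r = 0.925), Tmem56 (0.924) and Cxcl15 (0.922). Nrg1 was most like Grik3 (0.899), Speer4e (0.898) and Brinp3 (0.891), and Egfr like Sfrp2 (0.859), Frmd6 (0.839) and C4b (0.809). Hbegf was most like Tm4sf1 (0.894), Mast4 (0.890) and Actn4 (0.856), and Tgfa like Yrdc (0.809), Itga3 (0.794) and Adgrg1 (0.782). Btc and Erbb3 appeared in each other's lists (0.854) and shared Syngr1 (0.900 and 0.881), with Mlph (0.858) the other gene for Btc and Tmprss2 (0.864) for Erbb3. Erbb2 had no close match, with Nudt14 (0.743), Avl9 (0.728) and Cmtm8 (0.700) ahead.

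Aged and young mice were then compared within each cell type, with edgeR's quasi-likelihood test on the summed counts and Benjamini-Hochberg adjustment over all genes tested in the type, and calls required an adjusted p below 0.05 together with a 1.5-fold or larger change. Of 28 member and cell type pairs that passed the filter on low counts, in 7 of 12 fitted types, 7 were called, 4 higher and 3 lower in aged mice. All 7 were ligands. None of the 9 receptor pairs was called by edgeR, with 2 at an unadjusted p under 0.05 in the same test (Erbb3 in HS and Egfr in AV cells), or by DESeq2. The share of all genes called was 27.6% in myoepithelial, 6.26% in HS, 6.16% in AV, 1.46% in HS-AV, 3.17% in fibroblast, 26.7% in vascular endothelial and 11.8% in pericyte sums. Most receptor pairs were in HS and AV cells, and a difference between ligands and receptors was not tested. Ereg passed the filter in no type. Values in the age comparison are CPM scaled by the trimmed mean of M-values (TMM). On this scale values did not overlap between the ages in 8 pairs, the 7 called and Areg in fibroblasts. Of all genes tested, 35.7% did not overlap in myoepithelial, 21.5% in HS, 22.3% in AV, 15.2% in HS-AV, 15.9% in fibroblast, 36.8% in vascular endothelial and 24% in pericyte sums. On plain CPM the ages overlapped for Hbegf in both vascular endothelial and myoepithelial cells. Its mean log2(CPM + 1) there was higher in aged mice by 0.41 and 0.52, so this separation depended on the scaling.

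**Figure D2:**
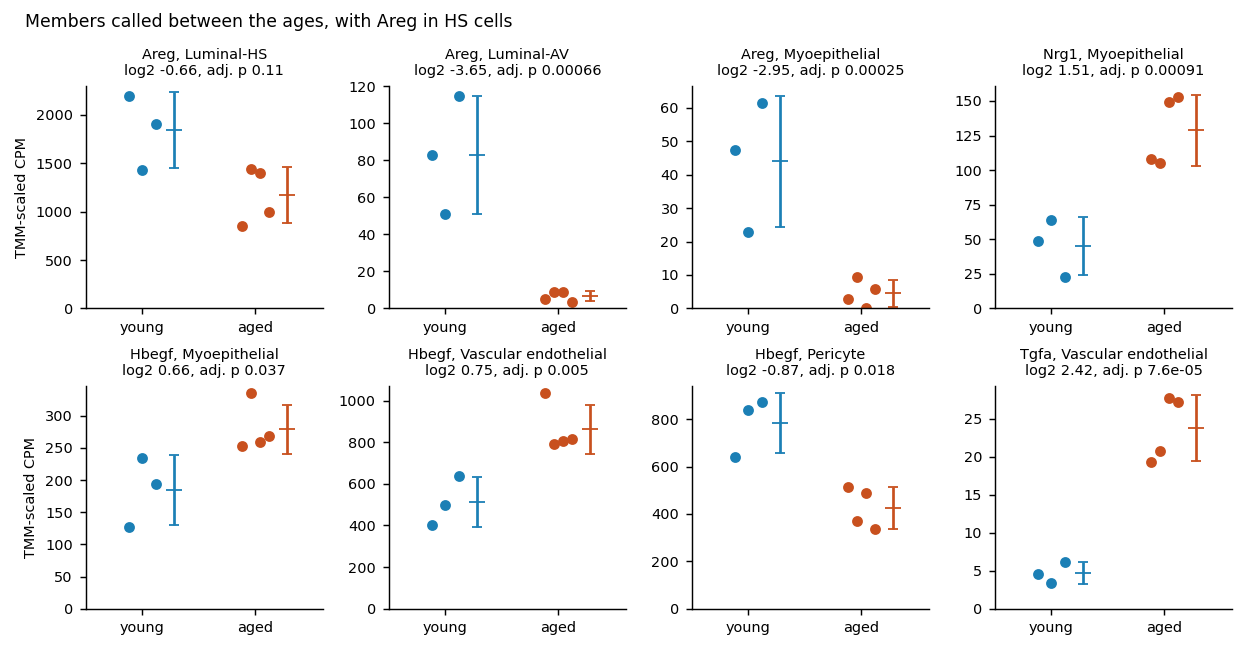
The 7 called pairs and Areg in HS cells, as TMM-scaled CPM on linear axes that start at 0, with 1 point per mouse and the mean ± SD beside each group (3 young in blue, 4 aged in orange). The panel titles give the log2 change and the adjusted p of edgeR's quasi-likelihood test. The groups do not overlap in any of the 7 called pairs, and Areg in HS cells overlaps at 1427 to 1436 CPM.

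In myoepithelial cells, the contractile layer around the ducts, Nrg1 and Hbegf were higher and Areg lower in aged mice, in a type where 27.6% of all genes tested were called (12.8% higher, 14.8% lower). Nrg1 stood at 48.4, 64.2 and 22.6 CPM in young and 108, 105, 149 and 153 CPM in aged mice. It rose by 1.51 ± 0.28 on the log2 scale (SE, edgeR adjusted p = 0.000911), and the call held under each alternative run. Hbegf stood at 126, 234 and 194 CPM in young and 253, 336, 259 and 268 CPM in aged mice. It rose by 0.66 ± 0.22 (SE, edgeR adjusted p = 0.0372), a call that was lost when any 1 of young mice A and C or aged mice B, C and D was left out (adjusted p 0.0532 to 0.251). Tgfa (log2 change 0.11 ± 0.40) and Egfr (-0.42 ± 0.35, SE) were not called there.

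In vascular endothelial cells, where 26.7% of genes were called (14.7% higher, 12% lower), Hbegf and Tgfa were higher in aged mice. Hbegf stood at 403, 498 and 638 CPM in young and 1038, 791, 806 and 815 CPM in aged mice, a rise of 0.75 ± 0.17 on the log2 scale (SE, edgeR adjusted p = 0.00501). Tgfa stood at 4.54, 3.40 and 6.21 CPM in young and 19.3, 20.8, 27.8 and 27.2 CPM in aged mice, a rise of 2.42 ± 0.31 (SE, edgeR adjusted p = 7.6e-05). Both calls held under each alternative run. Egfr did not pass the filter in vascular cells, and Erbb2 (log2 change -0.36 ± 0.41, SE) was not called. Areg in these cells was not called (log2 change -1.40 ± 0.62, SE, edgeR adjusted p = 0.108), but was called without aged mouse B (-2.67, adjusted p = 0.00905) or young mouse B (-1.84, adjusted p = 0.0398) and without the filter on low counts (-1.41, adjusted p = 0.000113). Without young mouse A its log2 change was -0.49 (edgeR adjusted p = 0.661). Among markers of other cell types in vascular cells, the myoepithelial keratins Krt14 (12.6 to 61.7 CPM) and Krt17 (7.44 to 53.6) were called higher, 2 of 5 myoepithelial markers tested, and their part in the rise of Tgfa and Hbegf was not tested.

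Pericytes went the other way for Hbegf, in a type where 11.8% of genes were called (7.19% higher, 4.61% lower). It stood at 641, 840 and 874 CPM in young and 515, 368, 489 and 336 CPM in aged mice. It fell by 0.87 on the log2 scale (SE 0.21, edgeR adjusted p = 0.0182), and the call was lost without aged mouse B (0.0502), young mouse B (0.0834) or young mouse C (0.0778). Taken per mouse, the difference between the vascular and the pericyte change was 1.46 on the log2(CPM + 1) scale, with p = 0.0286 in an exact permutation test, the smallest that 3 against 4 mice allow, and an adjusted p of 0.176 over 37 such comparisons of member changes between types. In AV cells Hbegf stood at 165, 431 and 711 CPM in young and 253, 225, 328 and 140 CPM in aged mice (log2 change -0.88 ± 0.42, SE, edgeR adjusted p = 0.236), and the ages overlapped.

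Areg was lower in aged AV and myoepithelial cells, where its level was low at both ages. In AV cells, with 6.16% of genes called (2.9% higher, 3.26% lower), it stood at 82.7, 51.2 and 115 CPM in young and 5.27, 8.86, 9.11 and 3.32 CPM in aged mice, and fell by 3.65 on the log2 scale (SE 0.36, edgeR adjusted p = 0.000657). In myoepithelial cells it stood at 47.5, 22.9 and 61.3 CPM in young and 2.70, 9.47, 0 and 5.88 CPM in aged mice, and fell by 2.95 (SE 0.46, edgeR adjusted p = 0.000248). Both calls held under each alternative run. With the ages pooled, an Areg UMI was found in 6.08% of AV and 3.47% of myoepithelial cells. The latter lay below the 4.45% of vascular cells, so the pooled myoepithelial level is read as background. At 2000 UMIs per cell the pooled shares were 2.59% in AV, 1.32% in myoepithelial and 2.25% in vascular cells, and they follow the cells recovered at each age. In young mice A to C the shares at this depth were 9.38%, 4.81% and 10.9% in AV cells. They were 0.535%, 2.5% and 5.56% in myoepithelial and 5.62%, 1.85% and 1.38% in vascular cells. AV cells thus lay above vascular cells in each young mouse, and myoepithelial cells in young mice B and C only. In fibroblasts, with 3.17% of genes called, the log2 change was -3.38 ± 0.87 (SE, edgeR adjusted p = 0.0511), and the change was called by DESeq2 (adjusted p = 0.00864) and without young mouse A (edgeR adjusted p = 0.0107).

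Markers of other cell types were lower in aged AV and myoepithelial cells together with Areg. In AV cells all 5 HS markers were tested and called lower, as were the 4 fibroblast markers (Col1a1 21.9 to 0.933 CPM, Col1a2 34.0 to 1.07, Col3a1 32.2 to 0.403 and Fn1 12.6 to 0.619), the leukocyte gene Ptprc (2.23 to 0.497) and the macrophage gene Csf1r (2.78 to 0.488). In myoepithelial cells the only HS marker tested, Prlr, was called lower, as were the 3 fibroblast markers tested (Col1a1 21.7 to 1.75 CPM, Col1a2 35.2 to 6.36 and Col3a1 34.1 to 0.949). Prlr stood at 178 CPM in young and 27.3 in aged AV cells (log2 change -2.69 ± 0.22, SE, edgeR adjusted p = 0.000375), and Pgr (-2.99), Esr1 (-1.68) and Cited1 (16.6 to 5.74 CPM) were also called lower there. The calls of Prlr and Pgr held under each alternative run, while that of Cited1 was lost without young mouse A (adjusted p = 0.0591) or C (0.107), and that of Esr1 without aged mouse C or any 1 young mouse (0.0504 to 0.0852). In myoepithelial cells Prlr was called lower too (43.0 against 8.73 CPM, log2 change -1.87 ± 0.53, SE, edgeR adjusted p = 0.0152), a call lost without young mouse B (0.103). Prlr was also called lower in fibroblasts (34.3 to 5.48 CPM, edgeR adjusted p = 0.0248), a call lost without any 1 aged mouse (0.0522 to 0.174). The same held in vascular endothelial cells (27.2 to 9.26 CPM, edgeR adjusted p = 0.0223), lost without aged mouse C or young mouse A or C (0.0567 to 0.0773). As a share of the HS level in the same mouse, Areg in AV cells was 3.88 to 6.49% in young and 0.328 to 0.673% in aged mice, and Prlr 9.86 to 13.2% and 1.92 to 2.86%. HS cells made up 22.5 to 37.0% of all UMIs of young mice and 7.21 to 12.1% of those of aged mice. The part of free RNA of other cell types, or of barcodes with another cell, in the Areg fall outside HS cells was not tested.

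**Figure D3:**
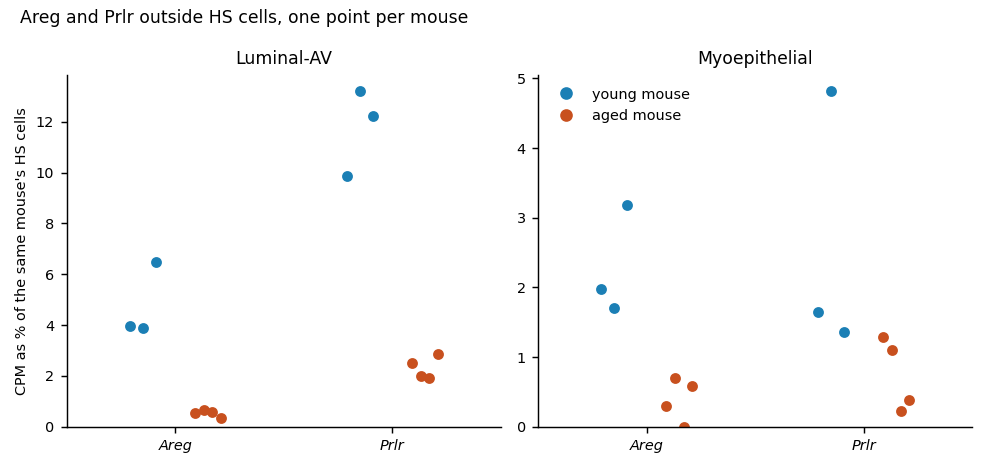
Areg and Prlr in AV cells (left) and myoepithelial cells (right), as CPM in percent of the HS level of the same mouse on linear axes that start at 0, with 1 point per mouse (young in blue, aged in orange). In AV cells both genes lie higher in all 3 young mice than in all 4 aged mice, and in myoepithelial cells the same holds.

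In HS cells themselves, with 6.26% of genes called (3.93% higher, 2.33% lower), no member was called by edgeR or DESeq2, with Areg and Erbb3 at an unadjusted p under 0.05 in both. Areg stood at 2195, 1427 and 1905 CPM in young and 852, 1436, 1397 and 992 CPM in aged mice (log2 change -0.66 ± 0.23, SE, edgeR adjusted p = 0.107), a change that was called without the filter on low counts (adjusted p = 0.0239). Young mouse B and aged mouse B overlapped on this scale, while the groups were separate on plain CPM, so the overlap depended on the scaling. In HS-AV cells, with 1.46% of genes called, Areg was not called (log2 change -0.36 ± 0.36, SE, edgeR adjusted p = 0.828). Erbb3 stood at 52.4, 39.6 and 47.3 CPM in young and 35.7, 40.7, 22.1 and 21.2 CPM in aged mice (log2 change -0.57 ± 0.23, SE, edgeR adjusted p = 0.156), and Erbb2 (-0.40 ± 0.28), Btc (0.07 ± 0.41), Tgfa (0.31 ± 0.39) and Hbegf (0.74 ± 0.43, SE) were not called.

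Egfr and Erbb4 had changes near 0, with their standard errors, in the type where each was highest. Egfr in fibroblasts had a log2 change of 0.01 ± 0.30 (SE, edgeR adjusted p = 0.995) and Erbb4 in AV cells 0.02 ± 0.40 (SE, edgeR adjusted p = 0.992). Erbb3 (0.26 ± 0.23) and Erbb2 (0.12 ± 0.25, SE) in AV cells were not called. Egfr in AV cells stood at 10.1, 6.61 and 12.4 CPM in young and 18.3, 17.1, 18.8 and 10.9 CPM in aged mice (log2 change 0.64 ± 0.28, SE, edgeR adjusted p = 0.207), with 1 aged mouse among the young values.

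The other ligands of the family gave 1 further call in HS cells. Nrg4, a neuregulin that binds ERBB4, stood at 65.8, 30.6 and 80.1 CPM in young and 13.7, 9.77, 5.53 and 9.29 CPM in aged HS cells, with no overlap. It fell by 2.58 on the log2 scale (SE 0.35, edgeR adjusted p = 0.00318), and the call held under each alternative run. Epgn stood at 19.6 CPM in young and 40.4 in aged HS cells (log2 change 1.10 ± 0.47, SE, edgeR adjusted p = 0.182) and was not called. In AV cells, with Nrg4 at 3.95 CPM in young and 0.210 in aged mice, Nrg4 was called lower as well (log2 change -4.12 ± 0.66, SE, edgeR adjusted p = 0.00617), as were the HS transcripts above.

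Genes downstream of the receptors were read from lists of the pathway, which were chosen with earlier results of these data known. Of 12 genes induced by ERK, the kinase at the end of the RAS cascade, all 12 were tested in myoepithelial cells. Of these, 6 were called higher and 2 lower, in a type with 12.8% of all genes called higher and 14.8% lower. The median log2 change was 1.00 against 0.01 over all genes there. Fosl1 (93.2 to 314 CPM), Ier3 (541 to 1764), Phlda1 (286 to 712) and Klf6 (220 to 479) were the higher genes with the smallest adjusted p, and each of these calls held under every alternative run. The 2 lower genes, named after their values were seen, were the ETS factors Etv4 (28.2 to 9.76 CPM) and Etv5 (29.4 to 6.02 CPM).

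In vascular endothelial cells, with 14.7% of all genes called higher and 12% lower, 4 of 10 tested ERK-induced genes were called higher and 1 lower. The median was 0.36 against -0.05 over all genes. Ier3 (877 to 3498 CPM), Myc (72.7 to 205) and Emp1 (1054 to 2005) were higher and Egr1 (1737 to 796) lower. These 4 calls held under each alternative run. In pericytes, with 7.19% of all genes called higher and 4.61% lower, 2 of 9 were higher. These were Ier3, lost without young mouse A (edgeR adjusted p = 0.0742) or B (0.0708), and Myc, lost without any 1 of 5 mice (0.0662 to 0.123). Emp1 was lower in pericytes (1798 to 649 CPM), a call that held. In HS cells 1 of 11 (Ier3) was called higher, with 3.93% of all genes called higher. Ier3 was also the only 1 of 9 called in fibroblasts (250 to 750 CPM, edgeR adjusted p = 0.00914), with 3.17% of all genes called. That call was lost without young mouse B (0.0536). Among 28 lymphatic endothelial cells, Ier3 was the only 1 of 4 called (805 to 3975 CPM, edgeR adjusted p = 0.0165). There, 13 of 494 genes were called without a fold minimum, and the Ier3 call was lost without aged mouse C (0.0711). In AV cells 1 of 11 (Emp1) was called lower, with 3.26% of all genes called lower. The call of Emp1 was lost when any 1 of aged mice B, C and D or young mice B and C was left out (adjusted p 0.0581 to 0.178).

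Feedback regulators, which limit receptor signaling once it is on, were mixed, in types where 27.6% (myoepithelial), 26.7% (vascular endothelial) and 11.8% (pericyte) of all genes were called. In myoepithelial cells 3 of 15 tested were higher, among them Spry2 (26.4 to 75.2 CPM), and 2 lower, among them Dusp5 (185 to 71.7 CPM). Without young mouse A the call of Spry2 was lost (edgeR adjusted p = 0.0533), and that of Dusp5 held under each alternative run. In vascular endothelial cells 5 of 15 were higher, led by Ptpn1 (79.7 to 244 CPM), and 2 lower. In pericytes 1 of 7 was higher, Errfi1 (272 to 667 CPM), the cytoplasmic inhibitor of EGFR, lost without young mouse A (edgeR adjusted p = 0.0532).

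Adaptors and kinases gave 6 calls in myoepithelial cells of 24 tested, 4 higher and 2 lower, and 4 calls of 25 tested in vascular endothelial cells, shares below the 27.6% and 26.7% of all genes called there. Map2k1, the kinase above ERK, was higher (28.03 to 96.5 CPM, log2 change 1.80 ± 0.25, SE, edgeR adjusted p = 0.000105) as was Grb2 (44.3 to 90.1 CPM), while Mapk3, which encodes ERK1 (69.2 to 31.1 CPM), and Hras (117 to 51.8 CPM) were lower. The call of Hras was lost without young mouse A (edgeR adjusted p = 0.0625). In vascular endothelial cells 2 of 25 were higher, led by Stat5a (14.9 to 58.2 CPM), and 2 lower, led by Hras (89.3 to 47.5 CPM), and these calls of Stat5a and Hras held under each alternative run. Of the ligand-shedding genes, Adam10 was lower in AV cells (23.6 to 9.22 CPM) and in myoepithelial cells (22.8 to 6.997 CPM). The first call was lost without young mouse C (edgeR adjusted p = 0.0740) and the second without young mouse A (0.100). Rhbdf1 was higher in myoepithelial cells (28.3 to 53.3 CPM), a call lost when any 1 of 5 mice was left out (aged A, C and D, young A and B, adjusted p 0.0674 to 0.323).

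Genes known to respond to tissue dissociation were called in some cell types and not in others. In AV cells the smallest edgeR adjusted p among the 17 tested was 0.0549 (Socs3, 230 to 115 CPM). In fibroblasts, with 3.17% of all genes called, 3 of 17 were called higher and 1 lower. In vascular endothelial cells 3 of 17 were called higher and 2 lower, where 26.7% of all genes were called, with Atf3 higher (789 to 1349 CPM) and Fosb lower (680 to 236 CPM). In pericytes, with 11.8% of all genes called, 6 of 17 were higher, and Fosb was lower (1483 to 593 CPM). In myoepithelial cells, with 27.6% of all genes called, 2 of 17 were higher and 3 lower, among them Btg2 (407 to 187 CPM). The vascular and myoepithelial counts were thus near the background of all genes, while the fibroblast and pericyte counts were above it. Hbegf is itself a gene of rapid response, and the part of dissociation in its differences was not tested.

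The whole gland was compared as the sum over all cells of a mouse, in which the mix of cell types also differed between the ages. Values of 6 of the 10 members did not overlap between young and aged mice, where 46.4% of 14195 genes with a UMI in every mouse did not overlap either. Areg stood at 586, 517 and 815 CPM in young and 115, 165, 105 and 74.8 CPM in aged glands (log2 difference -2.49). Nrg1 stood at 4.51, 2.71 and 1.75 CPM in young and 14.6, 19.8, 11.7 and 23.2 CPM in aged glands (2.21). Egfr stood at 28.1, 20.7 and 32.5 CPM in young and 17.9, 14.8, 15.6 and 8.95 CPM in aged glands (-0.89).

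These 3, with Tgfa (log2 difference 0.38) and Erbb4 (0.96), reached p = 0.0286 in an exact two-sided permutation test over the 35 divisions of the mice, the smallest possible, as did 35.5% of all genes, and the p adjusted over all 14195 genes was 0.0804. Erbb2 was separate by range (10.3 to 10.97 CPM in young, 6.15 to 10.1 in aged, exact p = 0.0571). In these sums fewer cells of a type and less RNA per cell cannot be told apart.

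Cell types with at least 3 cells in every mouse were also held at their mean share over the 7 mice, the other types left out. HS-AV cells, with 7.57 ± 7.75% of Areg UMIs in young mice (SD, n = 3), were among those left out. At these fixed shares the gland differences of Egfr and Erbb4 went from -0.89 to 0.01 and from 0.96 to 0.03. Areg kept -0.96 and Nrg1 1.07, each still without overlap between the ages, and Ereg also had none, as the only other member, where 28.1% of all genes did not overlap. Of the members 2 had p = 0.0286 in the same exact permutation test, against 18.9% of all genes with p under 0.05. Hbegf went from 0.25 to -0.30. With adjustment over all genes the p of Areg and Nrg1 at fixed shares was 0.152 in this exact test.

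**Figure D4:**
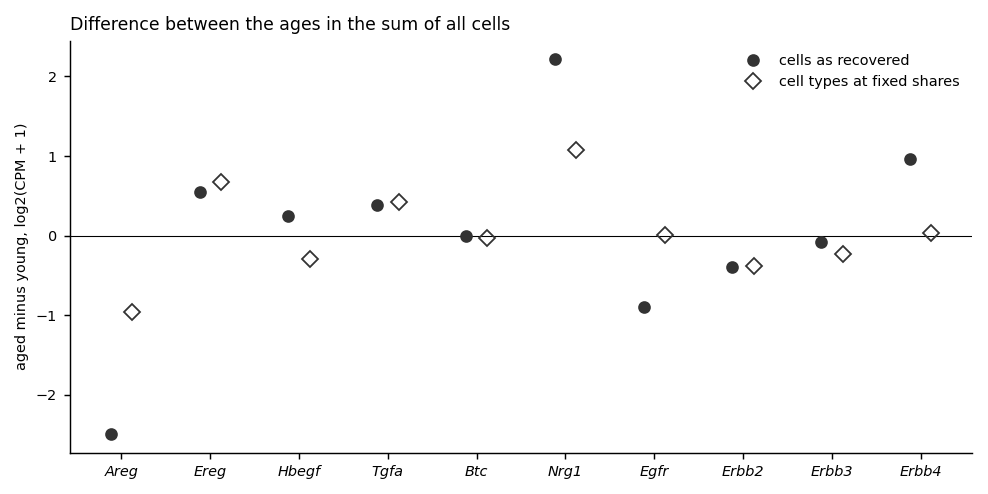
Difference between aged and young mice in the level of each member, as the mean log2(CPM + 1) of aged minus young mice. Filled circles show all cells as recovered. Open diamonds show each cell type with at least 3 cells in every mouse at a fixed share, the other types left out. Egfr and Erbb4 move to near 0 at fixed shares, while Areg stays below 0 (-0.96) and Nrg1 above it (1.07).

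The cell types that held the receptor UMIs differed between the ages. Fibroblasts held 84.9 ± 5.88% of a young mouse's Egfr UMIs (SD, n = 3) and 13.0 ± 10.5% of an aged mouse's (SD, n = 4), and AV cells 4.96 ± 1.79% and 65.6 ± 9.31%. HS cells held 64.2 ± 4.50% of Erbb3 UMIs in young and 14.5 ± 7.46% in aged mice, and AV cells 15.7 ± 7.72% and 82.3 ± 7.98%. Erbb2 and Btc UMIs had a like change of place from HS to AV cells, Erbb2 with 11.2 ± 4.08% in AV cells of young and 66.3 ± 7.86% of aged mice, and Btc with 20.1 ± 4.02% and 78.0 ± 6.37%. Areg UMIs were mostly in HS cells at both ages, with 86.1 ± 6.81% of its UMIs in HS cells in young and 93.9 ± 0.589% in aged mice. These shares were not tested, and they follow the number of cells recovered per type.

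**Figure D5:**
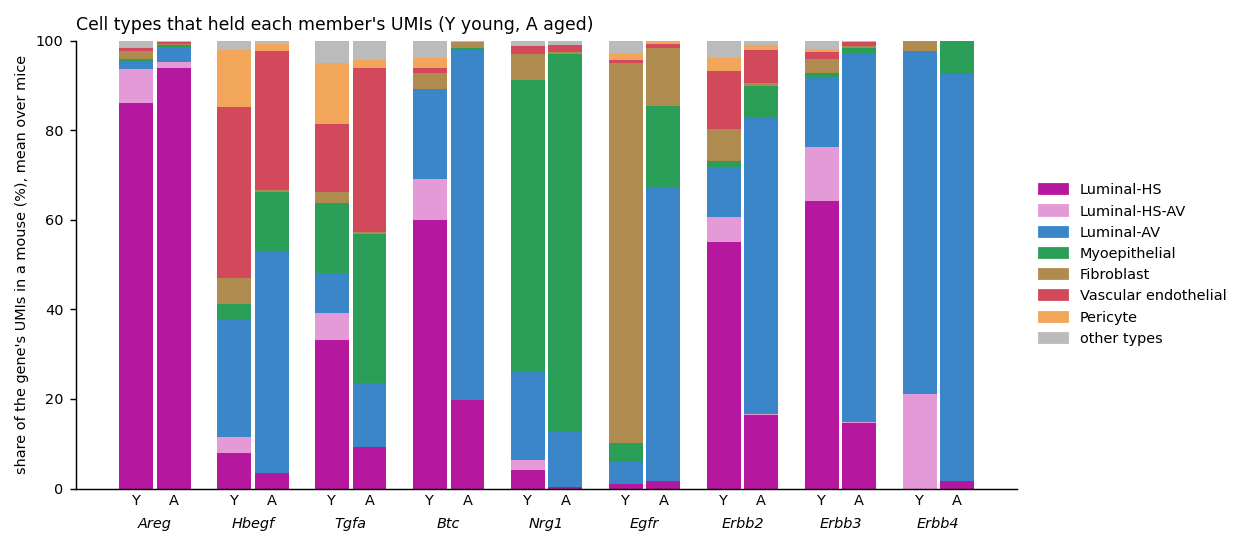
Share of each member's UMIs held by each cell type, as the mean percentage over 3 young (Y) and 4 aged (A) mice, with Ereg left out for its 77 UMIs. Areg stays in HS cells at both ages, Egfr passes from mostly fibroblasts (84.9%) to mostly AV cells (65.6%), and Erbb2, Erbb3 and Btc pass from mostly HS to mostly AV cells.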

How the data were processed

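Single cells from the glands of 3 young and 4 aged mice, separate animals by the labels, were sequenced with 10x Genomics 3′ chemistry, 1 library per mouse. The authors mapped reads to mm10, made UMI counts with Cell Ranger 2.0, filtered cells, ran Scrublet and DoubletFinder and named cell types in Seurat. The deposited counts are raw UMI counts per gene and cell, and no doublets were called here. The authors also deposited the fraction of mitochondrial UMIs per cell, used only to describe the libraries, and cell-cycle scores, which were not used. Per-sample columns left out numbered 0.

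For each mouse, counts were added over the cells of a type (at least 3 cells per mouse for tests, 10 for levels). Ages were compared with edgeR 4.0.16 (R 4.3.3, quasi-likelihood test, TMM, filterByExpr with a minimum count of 10), with Benjamini-Hochberg adjustment over all genes of the type. Calls needed an adjusted p below 0.05 and a change of 1.5-fold or more. Levels used log2(CPM + 1), on which low genes change less, and exact sign-flip or permutation tests, two-sided, over mice with scipy 1.17.1. Cells were thinned to 2000 UMIs for shares of cells. Wilson 95% intervals and the limits for a count of 0 (3 counts) cover counting error only. The scripts were tested on simulated data. Alternatives were DESeq2 1.42.0, RLE factors, no filter on low counts, no fold minimum, at least 10 cells, no ribosomal protein or mitochondrial genes, a replicate block and leaving out each mouse.

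All members were described. From each pathway list, at most 4 called genes per cell type by the smallest adjusted p were to be named, and the 3 genes most like each member with at least 10 CPM in some type. The members and lists were chosen with earlier results of these data known. The letters of the mice were checked as pairs: same-letter deviations correlated at -0.33 to 0.13 (median -0.06, 18 pairs), so the letters were not taken to pair mice. Promoter windows and positions came from RefSeq and GENCODE on GRCm38. 1 gene of the list of dissociation-associated genes is not reported here by name.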

Additional observations from a re-analysis of the deposited data

Results flagged for a closer look

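Of 33 groups of 4 aged mice examined, 4 held a mouse far from the other 3 by Dixon's criterion (a gap above 0.829 of the range), and chance gives about 1 such group in 20. Areg in vascular endothelial cells of aged mouse B was 20.3 CPM, against 2.54 to 4.24 in the other aged mice. Areg in pericytes of the same mouse was 5.30 CPM, from 1 UMI, against 0 in the others. Egfr in AV cells of aged mouse D was 9.51 CPM, against 16.7 to 17.1 in the others. Tgfa over the whole gland reached 7.27 CPM in 1 aged mouse, against 6.06 to 6.24 in the others.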

How the results depend on the processing

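Without a filter on low counts, 7 member and cell type pairs were called higher and 8 lower in aged mice, against 4 and 3. Of all genes, 2222 of 15412 were called in that setting in myoepithelial and 2623 of 15743 in vascular endothelial cells. The counts were 1215 of 16147 in HS, 935 of 16652 in AV, 582 of 16201 in fibroblast and 560 of 13947 in pericyte sums. Leaving out 1 mouse gave 3 to 4 pairs higher and 2 to 4 lower. The replicate block over mice A to C ended the calls of Hbegf in myoepithelial cells (log2 change 0.63, edgeR adjusted p = 0.0608, against 0.0667 for the same mice without the block, chosen after seeing the data) and in pericytes (-0.77, 0.0840). It ended no other member's call. Means over cells of per-cell CPM, among the 6 types present in every mouse (a comparison also added after seeing the data), gave log2 differences of 6.07 for Areg, 4.18 for Nrg1, 2.22 for Egfr and 1.53 for Erbb4, each with p = 0.0156 in the exact test, the smallest 7 mice allow. At fixed shares of cell types the gland differences of Hbegf (-0.30), Btc (-0.029) and Egfr (0.012) changed sign, as did Btc with 10 CPM added (-0.012). Leaving out 1 mouse turned the sign of gland Btc (-0.31 to 0.33) and Erbb3 (-0.17 to 0.078), of Btc in HS-AV against HS cells (-0.077 to 0.18), and of the Areg differences by Pgr (-4.42 to 3.55 points) and Esr1 (-1.55 to 4.29 points). With Pgr the difference was 4.95 points without thinning and 4.55 points for at least 2 Areg UMIs, and with Esr1 it was -1.81 points for the latter. None of these sign changes involved a called value, and their cause was not tested. Prlr could not be compared without thinning, because every HS cell of aged mouse C held a Prlr UMI. Depth limited Ereg and Erbb4 in particular (77 and 129 UMIs), and HS-AV cells of aged mice numbered 6 or fewer.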
